A study of Mus musculus with 4 samples.

Results

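The 7 genes described here encode transcription factors of ionocytes, related cells or epithelia more widely: Foxi1, Foxi2, Ascl3, Tfcp2l1, Dmrt2, Elf5 and Ehf. They were taken by name, and all 7 were found among the 53465 genes counted in each library and among the 16320 genes tested. The submandibular gland, a salivary gland, was taken from C57BL/6J mice, and RNA of its sorted Fgf10-positive cells was sequenced. All mice carried the same alleles, Fgf10CreERT2 with Rosa26Tomato fl/fl, and all received tamoxifen at 0.1 mg per g of body weight, so that the fluorescent mark depended on Fgf10-driven Cre at the time of the injections. The 2 adult libraries came from mice injected on postnatal days 57 and 58 and taken on day 60. The 2 pup libraries came from mice injected on days 4 and 5 and taken on day 7. The labels do not say whether replicates were separate or pooled animals, so p-values measure the spread between these samples, which may be technical.

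Ionocytes are scattered epithelial cells that pump protons, chloride and bicarbonate. FOXI1, a forkhead factor, switches on proton pump and anion transporter genes in such cells of the kidney, inner ear, epididymis and airway, and TFCP2L1 acts with it in the kidney collecting duct. ASCL3 is a basic helix-loop-helix factor known from salivary duct cells, DMRT2 marks acid-secreting intercalated cells of the kidney, and ELF5 and EHF are ETS factors of epithelia, ELF5 being known for its role in milk-secreting cells.

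Gene counts ranged from 7289792 to 21490686 per library. Pup replicate 1 had the fewest gene counts, though not for want of reads, and it stood apart. There 44734 genes had a count against 16805 to 19764 in the others. Of its tallied reads 76.7% fell in no gene against 9.70% to 10.6%. A count was present for 93.7% of 1406 olfactory receptor genes against 1.28% to 6.61%. Counts per kb of exon over those receptor genes gave the background expected for each gene in that library. Levels are given as CPM (each gene's share of its library's counts) scaled by edgeR's TMM factors. Values given for adult or pup glands are those of the Fgf10-positive cells sorted from them, not of whole glands. As bulk RNA was measured, fewer cells of a type and less RNA per cell cannot be told apart.

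The promoters of Ascl3, Foxi1 and Dmrt2 are shown, 3 of the 4 members with the largest differences between the ages; the Foxi2 window overlaps the annotated gene and is not shown. RefSeq (GRCm38.p6) gave 250 bases before the start of 6 of the 7 genes, and Ehf had no entry. The windows were searched for a forkhead motif (TGTTTAC or TATTTAC, or either with T as its last base), a CP2 motif (CCAG, then any 6 bases, then CCAG or CCGG), the E-box CAGCTG and the ETS motif GGAAGT, all on both strands, and for TATAAA on the gene's strand. The Ascl3 window (chr7:109731733-109731982, minus strand) held a forkhead match, a CP2 match and 3 TATAAA matches, which are in capitals. The Foxi1 window (chr11:34208090-34208339, minus strand) and the Dmrt2 window (chr19:25672161-25672410, plus strand) held none of these letters. They read, 5′ to 3′:
Ascl3: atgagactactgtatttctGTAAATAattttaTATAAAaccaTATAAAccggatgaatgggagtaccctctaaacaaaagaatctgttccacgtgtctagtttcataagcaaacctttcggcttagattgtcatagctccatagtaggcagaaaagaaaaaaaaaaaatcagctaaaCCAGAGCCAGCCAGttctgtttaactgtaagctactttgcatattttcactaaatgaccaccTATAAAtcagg
Foxi1: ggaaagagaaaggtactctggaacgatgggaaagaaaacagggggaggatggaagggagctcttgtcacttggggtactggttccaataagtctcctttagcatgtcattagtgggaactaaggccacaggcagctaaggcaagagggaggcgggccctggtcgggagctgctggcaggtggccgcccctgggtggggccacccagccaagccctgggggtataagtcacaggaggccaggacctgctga
Dmrt2: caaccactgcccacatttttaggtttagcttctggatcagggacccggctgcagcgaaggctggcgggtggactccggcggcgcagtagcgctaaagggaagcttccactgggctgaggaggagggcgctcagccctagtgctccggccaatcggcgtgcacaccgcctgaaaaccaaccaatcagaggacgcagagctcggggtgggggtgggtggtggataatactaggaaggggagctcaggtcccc

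The forkhead match of Ascl3, GTAAATA, began 231 bases before the start, and its CP2 match, CCAGAGCCAGCCAG, began 73 bases before it. Of all 32851 promoter windows of that length, 13.6% held a forkhead match, 4.26% a CP2 match, 13.0% the E-box, 19.7% the ETS motif and 7.59% TATAAA. Among the other members, Foxi2 held no match, Tfcp2l1 held TATAAA beginning 28 bases before the start, and the upstream of 2 Elf5 windows held the E-box. The Ascl3 window was also the poorest in G and C of the member windows, at 34.8% against 56.8% to 65.2% in the others and a median of 52.4% over all windows.

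Foxi1 (ENSMUSG00000047861, chromosome 11, 34204338 to 34208089, minus strand, GRCm38) stood at 1201 and 793 CPM in adult replicates 1 and 2 and at 4.22 and 7.72 CPM in pup replicates 1 and 2. The ages did not overlap, the lower adult being 103 times the higher pup, while the adults differed from each other by 1.51-fold. Adult exceeded pup by a log2 fold change of 7.37 ± 0.98 (SE, edgeR, 2 libraries per age), the 22nd highest of the 16320 genes tested. Its edgeR adjusted p was 0.164 and its DESeq2 adjusted p 1.22e-39.

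Foxi2 (ENSMUSG00000048377, chromosome 7, 135410308 to 135413622, plus strand), a close relative of Foxi1, stood at 899 and 488 CPM in adult glands against 8.87 and 1.84 in pup glands. Again the ages were apart, by 55.0-fold between the nearest libraries, but the pups differed 4.83-fold from each other. Its log2 fold change was 7.03 ± 1.16 (SE; edgeR adjusted p = 0.164, DESeq2 adjusted p = 2.42e-14). It was 8.55 without pup replicate 1 and 6.29 without pup replicate 2. No stretch of 50 bases of a Foxi1 or Foxi2 transcript occurred in a transcript of another gene, so reads of the pair were not of a near-identical copy at that length.

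The third gene of the subfamily, Foxi3, had 0 counts in the adults and in pup replicate 2, which allows up to 0.111 CPM over the adult pair for a floor of 3 counts. It had 27 counts in pup replicate 1, where 18.1 were expected from background. Per kb of exon, Foxi1 and Foxi2 together took 82.0% and 68.9% of the RNA of 44 forkhead genes in the adults against 3.20% and 1.72% in the pups. Foxi1 ranked 1 and Foxi2 2 in the family in each adult library. In the pups Foxi1 ranked 22 and 15, and the leading forkhead gene was Foxa1, a factor of many glandular epithelia.

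Among the other forkhead genes no call was made. Of 42 besides Foxi1 and Foxi2, 24 were tested, 11 were higher and 13 lower in adult (7000 of 16320 were higher over all genes tested), and their median log2 fold change was -0.27, beside -0.24 for all genes tested. None was called in either direction by edgeR or by DESeq2, and at an unadjusted edgeR p under 0.05 there were 0 higher and 2 lower in adult. The most abundant of them did not pass: Foxp1 stood at 356 and 318 CPM in adult glands against 164 and 177 in pup glands, and Foxa1 at 250 and 116 against 78.7 and 265 CPM. Foxn3 and Foxc1 had log2 fold changes of -0.86 ± 0.49 and 1.12 ± 0.64 (SE).

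**Figure D1:**
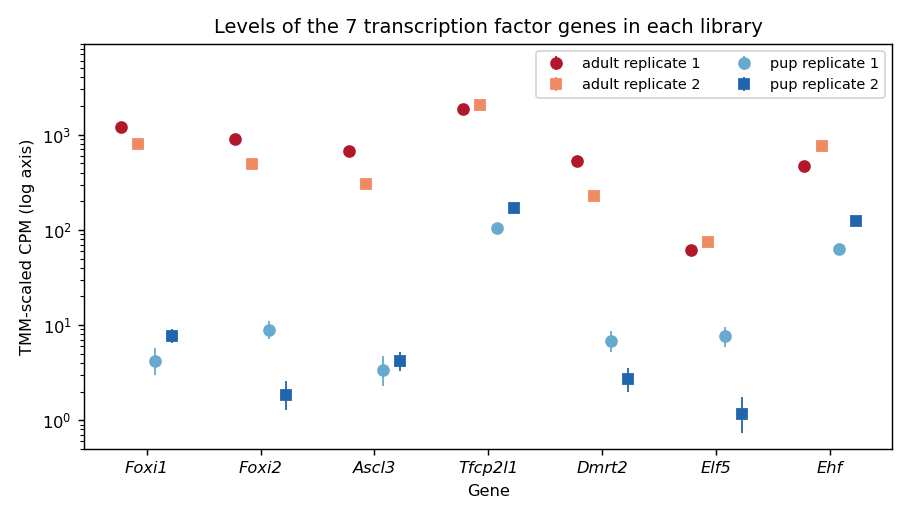
TMM-scaled CPM of the 7 genes on a log axis, with a point for each of the 4 libraries and 95% Poisson intervals that cover counting error only. For every gene both adult points lie above both pup points, and Tfcp2l1 and Ehf have the highest pup points.

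Ascl3 (ENSMUSG00000035951, chromosome 7, 109727465 to 109731726, minus strand) stood at 669 and 306 CPM in adult glands against 3.35 and 4.15 in pup glands. The pups lay close together, and the nearer adult was 73.8 times the higher pup. The log2 fold change was 7.01 ± 0.84 (SE), with the smallest edgeR p of the members (adjusted p = 0.161, 13th by p of all genes tested; DESeq2 adjusted p = 1.87e-27). It was the only member that edgeR called when genes were required to have 10 counts in every library of an age (adjusted p = 0.0409), beside 0.0856% of all genes called higher in adult under that filter. With every gene of at least 1 count tested, edgeR called 5 members, all but Tfcp2l1 and Ehf, beside 0.624% of all genes.

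Ascl3 was the main ASCL gene of the adults, with 99.4% and 99.9% of the family's RNA per kb over its 5 genes, but 37.9% in pup replicate 1 and 78.6% in pup replicate 2. Ascl2, known from intestinal stem cells, had 0 counts in the adults and stood at 5.52 and 2.63 CPM in the pups (edgeR adjusted p = 0.284, DESeq2 adjusted p = 0.0473). Ascl4 was uneven, at 13.0 and 0.144 CPM in adult glands against 6.60 and 0 in pup glands. Ascl5 had 7 counts or fewer in each library.

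Dmrt2 (ENSMUSG00000048138, chromosome 19, 25672411 to 25678991, plus strand) stood at 529 and 226 CPM in adult glands against 6.82 and 2.68 in pup glands. The nearest libraries were 33.1-fold apart, with a 2.34-fold difference between the adults. Its log2 fold change was 6.32 ± 0.91 (SE; edgeR adjusted p = 0.164, DESeq2 adjusted p = 2.16e-14), 5.52 without adult replicate 1 and 7.13 without pup replicate 1.

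The other 6 DMRT genes, most of them known from gonads or the nervous system, summed to 0 and 2.09 CPM in the adults. In pup replicate 1 they summed to 16.3 CPM, above Dmrt2 itself, and in pup replicate 2 to 0.263 CPM. None of the 6 was clearly above background in pup replicate 1. Dmrt1 had 31 counts there with 36.6 expected, Dmrta1 9 with 59.1 and Dmrta2 29 with 41.2. Dmrtb1 had 24 with 29.4 expected, and Dmrtc2 23 with 22.8. Dmrt3, the nearest gene on the left of Dmrt2 at a distance of 48.5 kb, had 0 and 10 counts in adult glands against 35 and 0 in pup glands, with 34.5 expected from background in pup replicate 1. Dmrt2 held 100% and 99.4% of the family's RNA per kb in the adults, but 29.6% in pup replicate 1 and 92.7% in pup replicate 2.

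Tfcp2l1 (ENSMUSG00000026380, chromosome 1, 118627945 to 118685168, plus strand) had the highest CPM of the members in every library, at 1870 and 2078 CPM in adult glands against 104 and 171 in pup glands. The adults lay close together (mean ± SD 1974 ± 147 CPM, n = 2), and the nearest libraries of the ages were 10.9-fold apart. The log2 fold change was 3.84 ± 1.02 (SE; edgeR adjusted p = 0.261, DESeq2 adjusted p = 2.02e-15). In the pups its RNA was well above background, 963 counts in pup replicate 1 with 133 expected.

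In its family of CP2 and grainyhead genes Tfcp2l1 ranked 1 in all 4 libraries, with 81.6% and 89.3% of the RNA per kb in the adults against 29.1% and 44.1% in the pups. Its closest relatives were low and not called by either tool: Tfcp2 stood at 12.8 and 14.0 CPM in adult glands against 16.0 and 19.8 in pup glands, and Ubp1 at 33.8 and 26.2 against 43.1 and 28.0 CPM. The grainyhead genes, regulators of epithelial barriers, were not called either. Grhl1, Grhl2 and Grhl3 had log2 fold changes of 1.75 ± 0.55, -0.04 ± 0.50 and 1.45 ± 0.86 (SE, edgeR adjusted p = 0.284, 0.984 and 0.532).

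**Figure D2:**
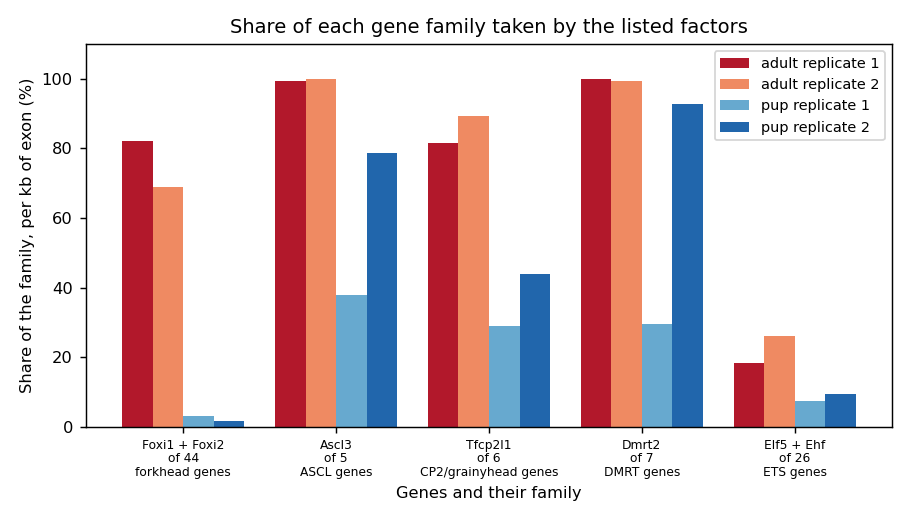
Share of each family's RNA, per kb of exon, that the listed genes took in each of the 4 libraries, as bars. Shares in pup replicate 1 include the background of that library. Foxi1 with Foxi2 take 82.0% and 68.9% of the forkhead RNA in the adults against 3.20% and 1.72% in the pups; Ascl3 and Dmrt2 lead their families in every library.

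Elf5 (ENSMUSG00000027186, chromosome 2, 103411688 to 103450989, plus strand) was the least abundant member in the adults, at 60.9 and 74.1 CPM, with 7.58 and 1.16 CPM in the pups. The ages did not overlap, but the pups differed 6.55-fold. Its log2 fold change was 3.97 ± 0.96 (SE; edgeR adjusted p = 0.240, DESeq2 adjusted p = 0.00411), 5.85 without pup replicate 1 and 3.15 without pup replicate 2. The 70 counts of pup replicate 1 compare with 82.9 expected from background.

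Ehf (ENSMUSG00000012350, chromosome 2, 103263433 to 103303278, minus strand) lies next to Elf5, 108 kb away with no protein-coding gene between them. It stood at 464 and 767 CPM in adult glands against 63.4 and 123 in pup glands, so its ages were the closest of the members, 3.76-fold apart between the nearest libraries. The log2 fold change was 2.72 ± 0.75 (SE; edgeR adjusted p = 0.263, DESeq2 adjusted p = 6.27e-05). Per kb, Ehf exceeded its neighbour by 8.03 and 10.9 times in the adults and by 8.82 and 113 times in the pups.

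Within the 26 ETS genes, Elf5 and Ehf together took 18.5% and 26.1% of the RNA per kb in the adults against 7.57% and 9.37% in the pups. The leading ETS gene in the adults was Elf3, a close epithelial relative, at 592 and 460 CPM against 33.1 and 49.0 CPM in the pups. Adult exceeded pup by a log2 fold change of 3.68 ± 0.67 (SE; edgeR adjusted p = 0.184), and DESeq2 called it higher in adult. DESeq2 also called Etv6 higher in adult (217 and 302 against 59.1 and 93.3 CPM) and Etv5, an FGF-responsive gene, lower (3.68 and 12.2 against 31.7 and 67.9 CPM); Etv5 was named after its values were seen. Spdef, a factor of secretory cells, had 6 and 276 counts in adult glands and 37 and 32 in pup glands. Of the 24 ETS genes besides the members, 20 were tested, 8 being higher and 12 lower in adult with a median log2 fold change of -0.41.

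Seen over the whole table, both adult libraries lay above both pup libraries for 7 of 7 members, and for 21.8% of all genes tested. The same held for 9 of 10 general epithelial, 5 of 7 duct and 2 of 8 acinar markers tested. It held for 0 of 6 basal and myoepithelial, 0 of 10 mesenchyme and 0 of 5 endothelial markers. At an unadjusted edgeR p under 0.05 all 7 members were higher in adult, beside 5.99% of the genes tested. After adjustment over all 16320 genes edgeR called none of the 7, as it called 0% of all genes in that direction, the smallest adjusted p over all genes being 0.141. DESeq2 called all 7 higher in adult, beside 3.73% of the genes it tested, and limma-voom called none of them, as it called none of all genes. For 1 gene alone, 2 libraries against 2 allow an exact permutation p, two-sided, of 0.333 at the smallest. Leaving out adult replicate 1 or adult replicate 2 gave edgeR calls for 5 members each time, beside 1.4% and 1.51% of all genes, Tfcp2l1 and Ehf not being called. Leaving out pup replicate 1 or pup replicate 2 gave edgeR calls for 0 members and for 0% of all genes.

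**Figure D3:**
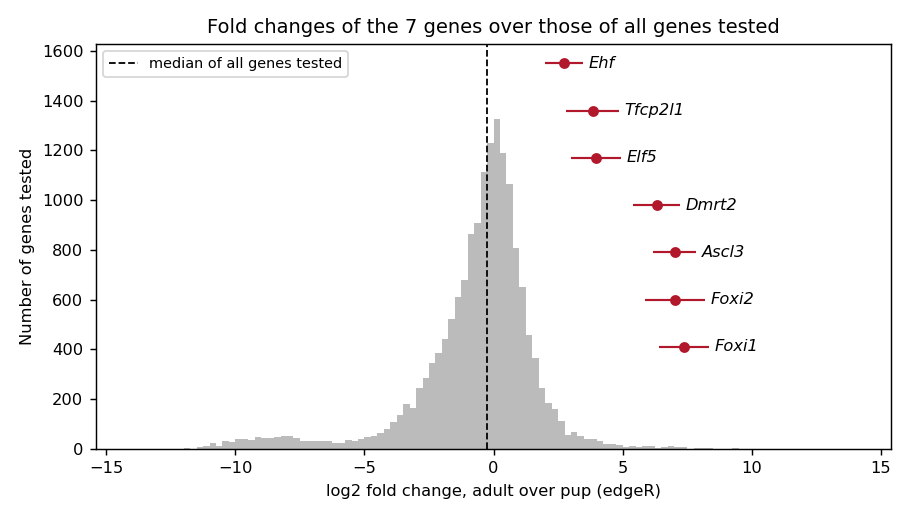
Histogram of the log2 fold change of adult over pup for the 16320 genes tested, with the 7 members as points and bars of 1 SE, set at arbitrary heights. The members lie between 2.72 and 7.37, to the right of the dashed median of -0.24.

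The members formed groups by size of the difference. Foxi1, Foxi2, Ascl3 and Dmrt2 had log2 fold changes of 6.32 to 7.37, and Tfcp2l1, Elf5 and Ehf of 2.72 to 3.97; the difference between the groups was not tested. The place of Elf5 rests on pup replicate 1, its log2 fold change being 5.85 without that library. With the background subtracted there it was 6.63, beside 6.70 for Dmrt2. The subtraction set Elf5 to 0 in pup replicate 1, where 70 counts were seen and 82.9 expected. It left Dmrt2 at 3.25 CPM there. Per kb of exon the order in adult replicate 1 was Ascl3 (955), Foxi1 (509), Foxi2 (338), Dmrt2 (227), Tfcp2l1 (198), Ehf (83.2) and Elf5 (10.4), in CPM per kb. In adult replicate 2 it was Ascl3 (438), Foxi1 (336), Tfcp2l1 (220), Foxi2 (184), Ehf (138), Dmrt2 (96.7) and Elf5 (12.6). Neighbours in the middle of that order therefore changed places between the adults, while Ascl3, Foxi1 and Elf5 kept theirs. In the pups Ehf led with 11.4 and 22.1 CPM per kb, Tfcp2l1 followed in both libraries (18.1 in pup replicate 2), and the other 5 were at or below 5.93.

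Ranks among the genes tested, also per kb, gave the same picture. Ascl3 was 44th and 112th of 16320 in the adults and 7590th and 6376th in the pups. Foxi1 was 94th and 142nd in the adults and 13477th and 8428th in the pups, and Foxi2 166th and 284th against 10103rd and 12510th. Dmrt2 was 269th and 593rd against 10992nd and 11404th. Tfcp2l1 moved less, from 2912th and 2899th in the pups to 309th and 236th in the adults, and so did Ehf, from 2793rd and 2479th to 686th and 400th. Elf5 was in the top 26.9% and 25.1% of genes in the adults and the top 89.1% and 87.7% in the pups.

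Ratios within a library do not depend on its scaling. Per kb, Foxi1 was 2.57 and 1.53 times Tfcp2l1 in the adults and 0.162 and 0.181 times in the pups, though Foxi1 counts in pup replicate 1 were within the range of background. Ascl3 was 4.82 and 1.99 times Tfcp2l1 in the adults and 0.434 and 0.327 times in the pups. The ratio of Ehf to Tfcp2l1 ran the other way, at 0.420 and 0.625 in the adults against 1.03 and 1.22 in the pups. None of these ratios can pass a permutation test with 2 libraries per age.

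For Foxi1 and Elf5, what little RNA was counted in pup replicate 1 was close to the background of that library. Its 39 Foxi1 counts (95% Poisson interval 27.7 to 53.3) included the expected 33.2, and its 70 Elf5 counts (54.6 to 88.4) included the expected 82.9. Counts were above expectation for Foxi2 (82, 37.5 expected), Dmrt2 (63, 33.0 expected), Ascl3 (31, 9.87 expected) and Ehf (586, 78.6 expected). In pup replicate 2, where 2.77% of olfactory receptor genes had a count, there were 147 counts of Foxi1, 79 of Ascl3, 51 of Dmrt2, 35 of Foxi2 and 22 of Elf5. With the background subtracted from pup replicate 1, edgeR called Ascl3 and Dmrt2 (adjusted p = 0.0479 for each), beside 0.0919% of all genes called higher in adult. The Elf5 log2 fold change was then 6.63, with its counts in pup replicate 1 set to 0. The background is an average over genes and need not hold gene by gene.

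**Figure D4:**
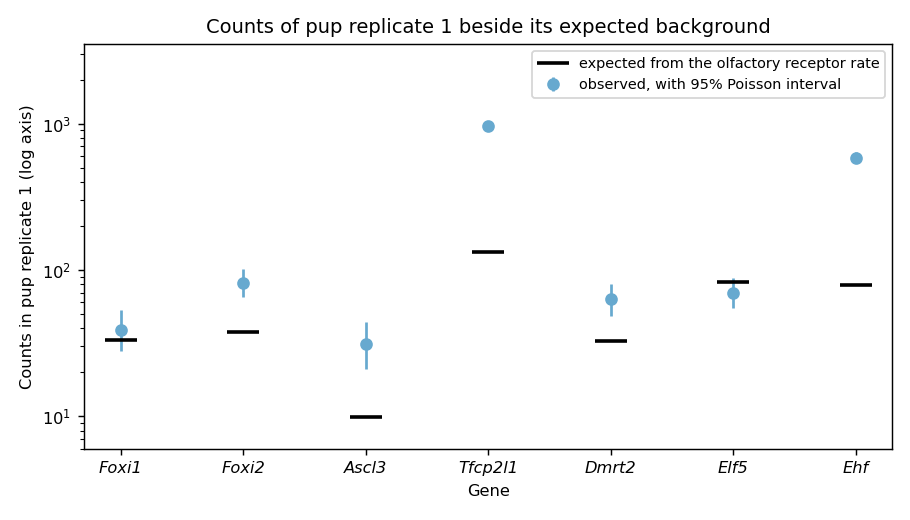
Counts of the 7 genes in pup replicate 1 (points with 95% Poisson intervals) and the counts expected from the olfactory receptor rate (black lines), on a log axis. The intervals of Foxi1 and Elf5 include the expected counts, and the other 5 lie above them.

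The adult libraries differed in the same sense for Foxi1, Foxi2, Ascl3 and Dmrt2, which were 1.51, 1.84, 2.18 and 2.34 times higher in adult replicate 1. Tfcp2l1, Elf5 and Ehf were lower there, Elf5 at 0.822 and Ehf at 0.605 times adult replicate 2. Fgf10, the gene of the sort, was 4.85 times higher in adult replicate 1, at 195 and 40.3 CPM in adult glands against 27.3 and 24.1 in pup glands.

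Markers of other cells differed between the libraries as well. The 8 acinar markers summed to 620 CPM in adult replicate 1 and 55797 CPM in adult replicate 2, against 631 and 2001 CPM in the pups, and Aqp5 and Dcpp1 were at 0 in adult replicate 1. The 10 mesenchyme markers summed to 1257 and 22447 CPM in adult glands against 26114 and 59750 in pup glands, Twist2 being at 0 in adult replicate 1. The 6 basal and myoepithelial markers summed to 5127 and 2180 CPM in adult glands against 4894 and 14222 in pup glands. The 10 general epithelial markers were closer in the adults, at 10749 and 14686 CPM, than between ages, the pups having 1909 and 4439 CPM. Duct markers (8) summed to 10697 and 12038 CPM in adult glands against 262 and 497 in pup glands. The 5 endothelial markers differed between the adults by more than the acinar ones, at 0.0766 and 749 CPM, with 107 and 6.25 CPM in the pups, and 4 of them were at 0 in adult replicate 1. The leukocyte, erythroid and tuft cell lists each summed to at most 102 CPM in any library. The part of these cell types in the members' differences was not tested.

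**Figure D5:**
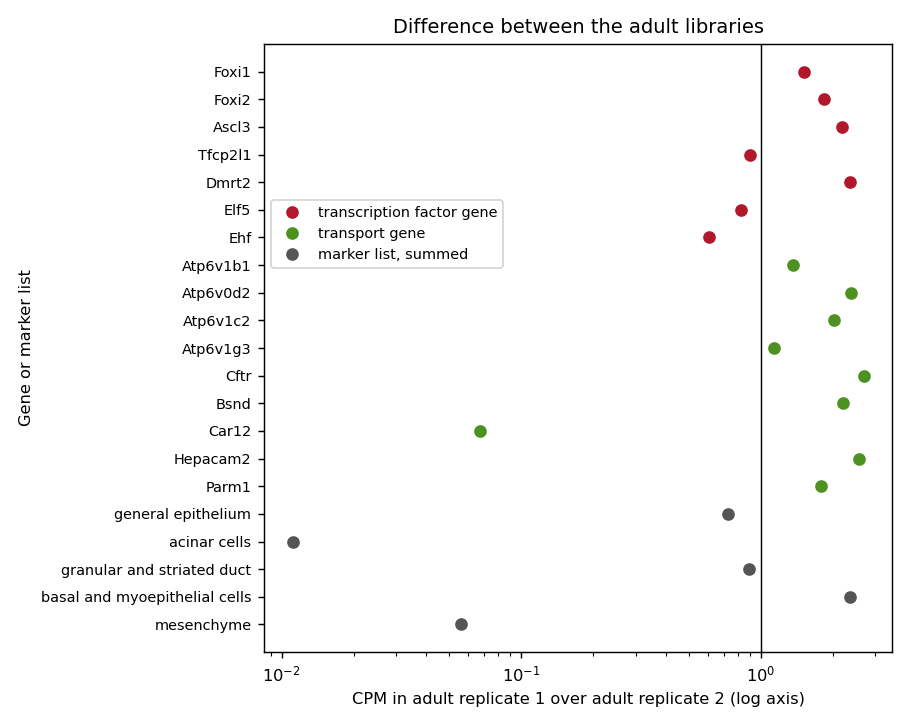
CPM in adult replicate 1 divided by that in adult replicate 2, on a log axis, for the 7 transcription factor genes, 9 tested transport genes and the sums of 5 marker lists. Foxi1, Foxi2, Ascl3 and Dmrt2 lie to the right of 1 with the transport genes shown other than Car12, while Tfcp2l1, Elf5 and Ehf lie to its left.

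Genes that FOXI1 is known to control or accompany were then listed: 14 transport genes of ionocytes and intercalated cells. Of these, 10 passed the filter on low counts. All 10 had a positive log2 fold change, beside 7000 of the 16320 genes tested, with a median of 4.57 beside -0.24. At an adjusted p under 0.05 edgeR called 0 and DESeq2 called 8, beside 3.73% of all genes by DESeq2. As such genes could pass the filter through the adults alone, this count is a description. Bsnd, the accessory subunit of chloride channels, stood at 581 and 265 CPM in adult glands against 1.08 and 0.683 in pup glands, a log2 fold change of 8.92 ± 0.91 (SE; edgeR adjusted p = 0.141). Cftr, the cystic fibrosis chloride channel, stood at 231 and 85.8 against 17.6 and 4.78 CPM.

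Proton pump subunits on the list differed among themselves. Atp6v0d2 stood at 1397 and 591 CPM in adult glands against 12.3 and 8.46 in pup glands, Atp6v1b1 at 315 and 231 against 6.93 and 17.9 CPM, and Atp6v1g3 at 58.0 and 51.2 against 3.57 and 0.788 CPM. Atp6v1c2 was lower, at 55.1 and 27.4 against 16.0 and 4.36 CPM (DESeq2 adjusted p = 0.254). Atp6v0a4, the kidney-type a subunit, had 0 counts in the adults, 81 in pup replicate 1 with 70.1 expected from background, and 3 in pup replicate 2.

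The bicarbonate and anion exchangers that FOXI1 drives in other organs were not detectable in the adults. Slc4a1, Slc4a9 and Slc26a4 (pendrin) had 0 counts in the adults and in pup replicate 2. In pup replicate 1 they had 21, 47 and 131 counts, with 69.0, 90.3 and 43.8 expected from background. Hepacam2, a surface marker of such cells, stood at 1603 and 623 CPM in adult glands against 17.3 and 2.10 in pup glands. Parm1 stood at 388 and 217 against 57.7 and 116 CPM. Car12, a carbonic anhydrase, was the exception among the tested genes in the adults, at 18.5 and 275 CPM, with 22.6 and 15.2 CPM in the pups (DESeq2 adjusted p = 0.0887).

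Of 6 further regulators known from ionocytes or intercalated cells, 3 were tested, and edgeR called none. Esrrg, an orphan receptor of mitochondria-rich cells, stood at 107 and 105 CPM in adult glands against 10.1 and 19.0 in pup glands (log2 fold change 2.86 ± 0.54, SE; edgeR adjusted p = 0.196). Nr3c2, the mineralocorticoid receptor, stood at 136 and 82.0 against 33.0 and 15.8 CPM, and Ppargc1a, a coactivator of mitochondrial biogenesis, at 284 and 309 against 68.5 and 121 CPM. DESeq2 called these 3 higher in adult, beside 3.73% of the genes it tested. Foxi3, Hmx2 and Esrrb had 0 counts in the adults and in pup replicate 2.

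Genes with the profile most like a member over the 4 libraries were found from log2 (CPM + 0.5), each centred on its mean, as those with the smallest root mean square difference among 10429 genes of at least 10 mean CPM. For Foxi1 these were Ifi27l2a (0.33), Asgr1 (0.36) and Hspb7 (0.44), and for Ascl3 they were Asgr1 (0.26), Prr15l (0.30) and Atp6v0d2 (0.33). Foxi2 had Adgrf5 (0.28), Hepacam2 (0.32) and Neurl1a (0.33) nearest, and Dmrt2 had Gng4 (0.23), Neurl1a (0.26) and Atp6v0d2 (0.27). Tfcp2l1 was nearest to Mansc1 (0.15), the class I gene H2-K1 (0.16) and Elf3 (0.21). Elf5 was nearest to Smim5 (0.19), Tmem125 (0.22) and Arg1 (0.30), and Ehf to mt-Co1 (0.12), the keratin gene Krt18 (0.16) and Tap2 (0.18). Between members, Foxi1 and Ascl3 were the most alike (0.38), followed by Foxi2 with Dmrt2 (0.58), Ascl3 with Dmrt2 (0.60) and Tfcp2l1 with Ehf (0.61), while Foxi2 and Ehf were the least alike, beyond Foxi1 and Ehf (2.32). Such likeness over 4 libraries is a description of these libraries.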

How the data were processed

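Cells sorted as Fgf10-positive from the submandibular gland gave 4 libraries. Per the labels' protocols, total RNA was amplified as full-length cDNA by PCR with SMART-Seq HT, which keeps no strand information. The authors deposited raw counts of reads per Ensembl gene for each library. The submitters' processing notes name cutadapt 1.18, STAR 2.5.2a, HTSeq 0.11.0, R 3.5.1, DESeq2 1.20.0 and GRCm38. The sources used here do not give their options, the gene annotation or whether counting used strand. Reads that HTSeq assigned to no single gene, ambiguous reads among them, entered neither library sizes nor tests. Their share of reads was 32.9% (adult replicate 1), 32.3% (adult replicate 2), 84.4% (pup replicate 1) and 31.5% (pup replicate 2). Of 53465 gene IDs, 53360 matched GENCODE vM21, from which came gene symbols, coordinates and exon lengths (the union of a gene's annotated exons). Tables of the whole series (2) were not used, since their 8 value columns match no single sample by name.

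Counts were tested in R 4.3.3 with edgeR 4.0.16 (quasi-likelihood F test, TMM, filterByExpr with a minimum count of 10 and total of 15, age as the only term, Benjamini-Hochberg over all genes at 0.05), after a check on simulated data. The SE is the log2 fold change over the square root of F. The common biological coefficient of variation was 0.895. Alternatives were DESeq2 1.42.0 (317 genes had no adjusted p), limma-voom 3.58.1, other scalings and filters, a replicate block, background subtraction and each library left out. Named were the members, their close paralogs, the transport and regulator lists, called genes or up to 4 abundant genes of the other lists, nearest neighbours and genes of most similar profile. Some genes of these lists are counted but not reported here by name. The members and lists were chosen with earlier results of these data known. Intervals and floors cover counting error only.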

Additional observations from a re-analysis of the deposited data

How the results depend on the processing

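All 7 members stayed higher in adult under all 13 alternatives, with log2 fold changes between 7.01 and 7.88 for Foxi1, 6.29 and 8.55 for Foxi2, 6.30 and 7.47 for Ascl3, 3.52 and 4.24 for Tfcp2l1, 5.52 and 7.13 for Dmrt2, 3.15 and 6.63 for Elf5, and 2.31 and 3.28 for Ehf. Leaving out each library in turn gave the same ranges, except that Elf5 then reached 5.85. What differed was whether a member passed. DESeq2 passed all 7, at 7.33 for Foxi1, 6.93 for Foxi2, 6.97 for Ascl3, 3.79 for Tfcp2l1, 6.25 for Dmrt2, 3.85 for Elf5 and 2.66 for Ehf. With every gene of at least 1 count, edgeR passed Foxi1 (7.47), Foxi2 (7.29), Ascl3 (7.14), Dmrt2 (6.54) and Elf5 (4.24). With 10 counts in every library of an age it passed Ascl3 (7.01), and with the background subtracted Ascl3 (7.03) and Dmrt2 (6.70). Over all genes, edgeR's 0 higher in adult and 0 higher in pup became 284 and 231 with the filter of 1 count, 13 and 2 with 10 counts in every library of an age, and 15 and 2 with the background subtracted, while DESeq2 called 597 and 848. Leaving out each library gave 0 to 247 higher in adult and 0 to 733 higher in pup; a lone library is then assumed to vary like the other age. limma-voom called 0 and 0, with 1220 and 1001 at an unadjusted p under 0.05. The cause of these differences was not tested.

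With the replicate number as a block, edgeR called 0 genes, and the members' log2 fold changes were 7.40 for Foxi1, 7.34 for Foxi2, 6.91 for Ascl3, 3.88 for Tfcp2l1, 6.33 for Dmrt2, 4.47 for Elf5 and 2.75 for Ehf, with no member passing. The deviations of adult replicate 1 and pup replicate 1 from their age means had a correlation of -0.06 across genes. With 2 libraries per age, this correlation cannot show whether the numbers pair the samples. Over all genes, other scalings shifted the median by -0.07 (DESeq2 size factors), -0.18 (upper quartile) and -0.38 (library totals) on the log2 scale. The adult levels rest on at least 795 counts a library. Those of pup replicate 2 rest on 22 to 147 for 5 members, where counting error limits the precision. In pup replicate 1 background limits it too, at 14.1 counts per kb of olfactory receptor exon against 0.0676 in pup replicate 2.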

Other observations

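Other transcription factors of salivary epithelium were higher in adult about as often as genes at large. Of 18 listed, 16 were tested, 7 being higher and 9 lower, beside 7000 of 16320 higher over all genes tested, with a median log2 fold change of -1.16 beside -0.24 for all genes tested, and edgeR called none. DESeq2 called 1 higher in adult and 1 lower, the latter being Tfap2c (50.8 and 34.1 against 95.8 and 295 CPM). Tfap2c was named after its values were seen. The most abundant of the list did not pass by either tool: Sox9 stood at 607 and 751 CPM in adult glands against 171 and 364 in pup glands, and Xbp1 at 380 and 522 against 116 and 280 CPM.

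Most genes beside the members were at or near 0 in the adults or did not pass by either tool. Dock2, 18.7 kb from Foxi1, had 0 and 1 counts in the adults, and the neighbours of Foxi2, Nps and Clrn3, had 0 in both. An exception was Tmem9b, 4.11 kb from Ascl3, at 723 and 332 CPM in adult glands against 29.4 and 71.7 in pup glands. With a log2 fold change of 3.38 ± 0.82 (SE), it did not pass by edgeR (adjusted p = 0.240), while DESeq2 called it. BC051019, 3.62 kb on the other side of Ascl3, stood at 3.83 and 3.10 CPM against 5.74 and 0 CPM. Cat, the catalase gene 2.86 kb from Elf5, stood at 686 and 626 against 180 and 327 CPM (edgeR adjusted p = 0.466, DESeq2 adjusted p = 0.0577).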
